A study of Mus musculus with 40 samples.

Results

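Blood glucose was recorded for each of the 40 mice whose brain RNA was hybridised, so the variation in glucose among animals of one diet group could be set against the level of each brain transcript. All 40 arrays were used, of 40 in the series, and each probe's log2 intensity was regressed on glucose with the 4 diet groups as a covariate. The animals were nine-week-old male C57BL/6J mice, killed after a four-hour fast, and 1 array was run on the whole-brain RNA of each. Dams ate a high-fat (HF) or a low-fat, high-carbohydrate (LF) diet before and through pregnancy and until their pups were weaned, and sons then ate HF or LF. Groups are named by maternal and then post-weaning diet, HF_HF, HF_LF, LF_HF and LF_LF, with 10 animals each from 4 or 5 breeding cages per group and 12 cages in all. Because 2 females shared a breeding cage, mice of one cage need not be littermates. Glucose was measured and not manipulated, so the slopes describe how transcripts and glucose varied together between animals.

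The brain takes up glucose across its capillaries through Slc2a1 and into neurons through Slc2a3, and traps it by phosphorylation with hexokinase 1 (Hk1). Glucose entering a cell is sensed by the transcription factor pair of Mlxipl or Mlxip with Mlx, whose best known target in most cells is Txnip, encoding thioredoxin-interacting protein. Stress raises blood glucose in part through glucocorticoids, which induce Fkbp5, Tsc22d3 and Sgk1 in many tissues, and hypothalamic neurons that make orexin (Hcrt) or agouti-related peptide change their firing with glucose. These genes and 38 lists of related genes and cell type markers were examined beside the probes with the smallest p-values.

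Mean glucose was 188.5 ± 42.8 mg/dl in HF_HF, 194.0 ± 24.0 mg/dl in HF_LF, 221.8 ± 29.3 mg/dl in LF_HF and 206.1 ± 34.6 mg/dl in LF_LF (SD, n = 10 each). Single animals spanned 129 to 271 mg/dl in HF_HF (median 178), 148 to 241 mg/dl in HF_LF (median 191), 187 to 277 mg/dl in LF_HF (median 221) and 167 to 261 mg/dl in LF_LF (median 196). The 4 ranges overlapped, and HF_HF had the widest. Around the group means the SD was 33.4 mg/dl, which is 0.669 of the 50 mg/dl over which slopes are given. Animals of one cage on one diet differed nearly as much, with an SD of 33.1 mg/dl, and 62.4% of the sum of squares within groups lay between such cage mates. In cage 20 the 3 HF_HF animals had 152 to 271 mg/dl, whereas the 3 LF_LF animals of cage 8 had 167 to 181 mg/dl.

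**Figure D1:**
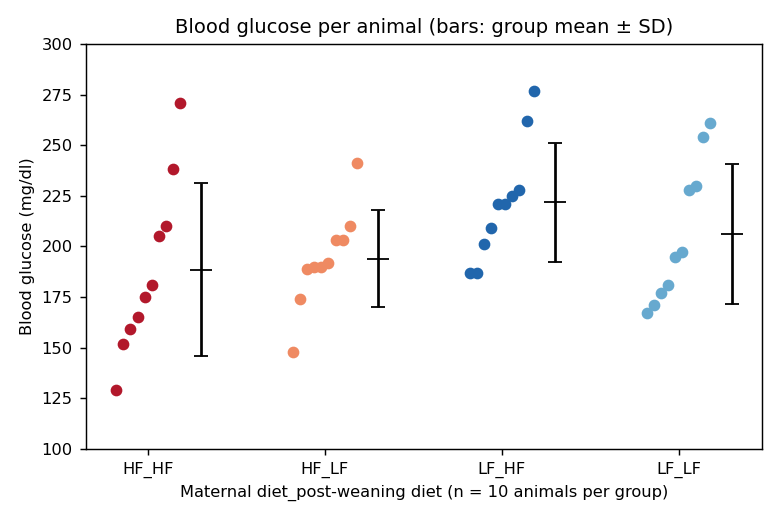
Blood glucose in mg/dl (vertical axis) of each animal in the 4 groups of maternal and post-weaning diet (horizontal axis, 10 points per group), with the group mean and SD as a bar to the right. The groups overlap, and HF_HF has both the lowest value, 129 mg/dl, and one of the 2 highest, 271 mg/dl.

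Intensities ran from 48.4 to 30357.2, and between 13588 and 15781 probes per array were above background, set by receptor genes of the nose and tongue. Of 14 neuronal markers 12 were measured in this tissue, labelled as brain. Correlations between arrays were lowest for 5 arrays, 1 of HF_HF, 2 of HF_LF and 2 of LF_LF, whose animals had 159 to 203 mg/dl. Without them the glucose slope, described below, gave 0 called probes as well, with 380 at an unadjusted p under 0.05 and 51.2% of slopes positive; the differences of slopes were not fitted without them.

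Glucose was not related to body size beyond what permutation of glucose among animals of one group allowed. Over 3 measures, the within-group correlation with the second body weight was r = 0.29 (permutation p = 0.0797, adjusted p = 0.239, two-sided, n = 40) and rho = 0.18 (permutation p = 0.285, adjusted p = 0.464). The correlation was 0.35 in HF_HF, -0.31 in HF_LF, 0.59 in LF_HF and 0.49 in LF_LF. Without the 2 animals whose glucose lay farthest from the median, an LF_HF animal at 277 mg/dl and an HF_HF animal at 271 mg/dl, r was 0.068, so most of it rested on them. Weight at 3 weeks gave r = 0.096 (permutation p = 0.597, adjusted p = 0.764) and rho = 0.13 (permutation p = 0.464, adjusted p = 0.464). Within groups this r had no common sign, at -0.32 in HF_HF, -0.47 in HF_LF, 0.76 in LF_HF and 0.52 in LF_LF. Body length gave r = 0.047 (permutation p = 0.764, adjusted p = 0.764) and rho = 0.14 (permutation p = 0.417, adjusted p = 0.464) over the 38 animals with a length. With values centred on cage and diet, r with the second weight was 0.50 (permutation p = 0.0301, adjusted p = 0.0868).

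No probe was related to glucose at an adjusted p under 0.05. limma, with a moderated statistic, a mean-variance trend and Benjamini-Hochberg adjustment, called 0 of the 14350 probes above background (0%), and the smallest adjusted p was 0.995. An unadjusted p under 0.05 was found for 269 probes with a positive slope (1.87% of all) and 89 with a negative one (0.62%), together 358, where 718 would be 5% of the probes. Ordinary least squares also called 0 (272 positive and 91 negative slopes at an unadjusted p under 0.05), as did a regularised statistic with a variance shared among probes of like level (194 and 74). Slopes were positive for 8323 probes (58%), with a median of 0.0078 log2 units per 50 mg/dl, and after cyclic loess between arrays for 43.9%. The share was 58.5% with each array centred on its median, 48.3% without HF_HF and 52% within cage and diet. The excess of positive slopes therefore did not hold under every choice of scaling or animals.

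**Figure D2:**
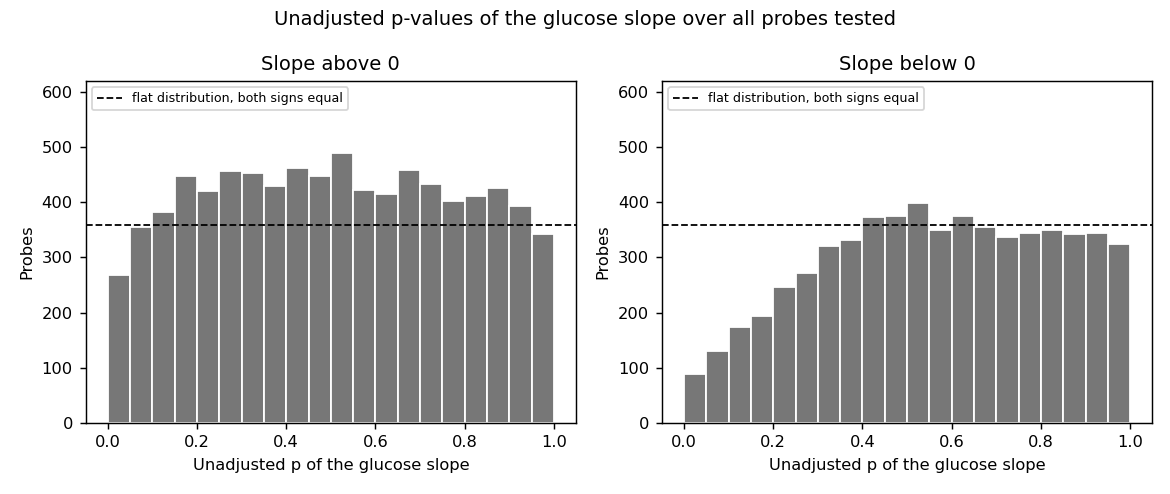
Number of probes (vertical axis) by unadjusted p of the glucose slope in bins of 0.05 (horizontal axis), for positive slopes on the left and negative slopes on the right, with a dashed line where equal numbers in all bins and both signs would lie. The first bin holds 269 probes with a positive and 89 with a negative slope, and is the lowest bin in both panels.

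The slopes were measured closely enough to bound them, as changes in intensity, for most probes. The median SE was 0.042 log2 units per 50 mg/dl, and the median 95% interval reached 0.084 to either side of the slope, a change in intensity of about 6.02%. For 92.6% of the probes the whole 95% interval, taken probe by probe, lay within a 1.2-fold change per 50 mg/dl in either direction, and for 99% within 1.5-fold. A lone probe of median SE would have needed a slope of 0.23, or 1.17-fold per 50 mg/dl, to pass over all probes. Intensities near background are compressed because no background was subtracted, so folds of dim probes are lower than those of their transcripts. Of the probes with a mean log2 intensity of 7 or more, 91.3% had intervals within 1.2-fold. That cut still lies within 1 log2 unit of background, so some of these probes are compressed too.

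Transcripts for glucose transport and phosphorylation had slopes on both sides of 0. Slc2a1, the glucose transporter of brain capillaries and astrocytes, had log2 intensities of 10.86 to 11.39 in HF_HF (median 11.11), 11.01 to 11.76 in HF_LF (median 11.43), 10.57 to 11.42 in LF_HF (median 11.20) and 11.00 to 11.46 in LF_LF (median 11.23). Its slope was 0.0039 per 50 mg/dl (SE 0.048, 95% interval -0.093 to 0.10), or 0.27% with an interval of -6.24 to 7.23%, and its within-group r was 0.013 (permutation p = 0.935) with rho = 0.091 (permutation p = 0.59). Single groups gave an r of -0.54 in HF_HF, 0.26 in HF_LF, 0.13 in LF_HF and 0.45 in LF_LF. Slc2a3, the neuronal transporter, had a slope of 0.012 (-0.071 to 0.096). Hk1, which commits glucose to use in the cell, had -0.070 (-0.20 to 0.065). Of the 10 measured members of this list 5 had positive and 5 negative slopes, with a median of -0.0037 and none at an unadjusted p under 0.05. The members with the smallest p were Hk3 (0.057, p = 0.0626), a hexokinase of blood cells that lay near background, and Slc2a13, a proton-coupled inositol transporter of the same family (-0.061, p = 0.0808).

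Txnip is shown with its promoter because its transcription follows glucose in many cell types through a pair of E-box-like elements. The 120 bases before its start site, from RefSeq (chr3:96557837-96557956, GRCm38.p6, plus strand, 5′ to 3′), have the repeated letters CACGAG in capitals.
Txnip: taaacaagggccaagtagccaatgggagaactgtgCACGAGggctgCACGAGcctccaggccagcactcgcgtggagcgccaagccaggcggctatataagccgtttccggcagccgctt
The letters CACGAG were searched on both strands of 300-base windows, from 250 bases before to 50 after each gene's start. They occurred in 6.47% of 32851 promoters, whereas the pair at the spacing printed above occurred in 1, that of Txnip, from 85 bases before the start site. Because the letters and spacing were those of the Txnip promoter, its own match was certain. Other spellings of such elements were not searched.

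Txnip intensities were 7.96 to 8.40 in HF_HF (median 8.15), 7.99 to 8.35 in HF_LF (median 8.20), 7.64 to 8.59 in LF_HF (median 8.10) and 7.95 to 8.46 in LF_LF (median 8.26). All 4 groups overlapped almost wholly, and LF_HF was the most spread (SD 0.287, against 0.108 in HF_LF). Txnip had a slope of 0.035 per 50 mg/dl (SE 0.047, 95% interval -0.060 to 0.13, p = 0.464, adjusted p = 0.995), or 2.43% with an interval of -4.09 to 9.41%. Its r was 0.12 (permutation p = 0.452) and its rho 0.13 (permutation p = 0.463), with an r of -0.38 in HF_HF, 0.25 in HF_LF, 0.49 in LF_HF and 0.11 in LF_LF, and 0.10 without the 2 animals of most extreme glucose.

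Other sugar-responsive genes and the pentose phosphate pathway, which turns glucose into NADPH and ribose, had positive slopes in 7 of 9 members (77.8%, against 58% of all probes) with a median of 0.031. None passed. Thrsp, a lipogenic gene induced by carbohydrate in liver, had 0.18 (SE 0.075, p = 0.0222, adjusted p = 0.995). Its levels were 7.0 to 8.37 in HF_HF (median 7.66), 6.97 to 7.92 in HF_LF (median 7.59), 7.33 to 8.04 in LF_HF (median 7.71) and 7.06 to 8.13 in LF_LF (median 7.43). The correlation of Thrsp with glucose was 0.76 in HF_HF, -0.053 in HF_LF, 0.19 in LF_HF and 0.22 in LF_LF, and over all groups 0.36 (permutation p = 0.0326) with rho = 0.20 (permutation p = 0.24), and 0.20 without the 2 extreme animals. Transketolase (Tkt, 0.076, p = 0.033) and transaldolase (Taldo1, 0.098, p = 0.0628) likewise had their highest r in HF_HF, at 0.66 and 0.60, and lower positive ones in the other groups. The dimmer probes of Tkt, at mean levels of 7.07 and 6.81, had slopes of 0.0027 (p = 0.939) and -0.034 (p = 0.293), so the probes of this gene disagreed. Arrdc4, a relative of Txnip that responds to sugar in other cells, had -0.034 (-0.12 to 0.048).

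Insulin and IGF signalling had positive slopes in 18 of 24 members (75%, against 58% of all probes), with a median of 0.015. Insr, the insulin receptor, was not above background in 20 arrays and was not tested. Irs1, the adaptor below the insulin and IGF1 receptors, had levels of 6.35 to 6.71 in HF_HF (median 6.61), 6.16 to 6.74 in HF_LF (median 6.59), 6.13 to 6.71 in LF_HF (median 6.59) and 6.27 to 6.73 in LF_LF (median 6.61). Its slope was 0.084 (SE 0.036, p = 0.024, adjusted p = 0.995), with an r of 0.36 (permutation p = 0.0168), rho of 0.44 (permutation p = 0.0077) and the same sign in all 4 groups, at 0.55 in HF_HF, 0.097 in HF_LF, 0.28 in LF_HF and 0.60 in LF_LF. Irs1 was named for the smallest p of its list, so these values only describe it. It lay close to background, which was 6.35 to 6.51 on this scale, and was above it in 34 of 40 arrays. Igf1, the growth factor itself, had 0.074 (p = 0.0444), and Irs2 and Igf1r had 0.024 (-0.10 to 0.15) and 0.015 (-0.062 to 0.092). Of 21 genes that fasting and FoxO transcription factors raise in other tissues 14 had positive slopes (66.7%, against 58% of all probes, median 0.011). Among them was Trim63, a ubiquitin ligase of muscle near background here (0.11, p = 0.00762). Pdk4, which shuts pyruvate dehydrogenase in a fast, had 0.0092 (-0.052 to 0.070).

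Glucocorticoid-responsive genes gave 9 positive and 14 negative slopes of 23, with a median of -0.0082. Fkbp5, a chaperone of the glucocorticoid receptor, had levels of 7.84 to 8.37 in HF_HF (median 8.10), 8.04 to 8.70 in HF_LF (median 8.33), 7.72 to 8.24 in LF_HF (median 7.98) and 7.63 to 8.39 in LF_LF (median 8.00). Its slope was -0.038 (SE 0.046, 95% interval -0.13 to 0.056, p = 0.421), with an r of -0.14 (permutation p = 0.395) and rho of -0.20 (permutation p = 0.237). The r was -0.71 in HF_HF, -0.21 in HF_LF, 0.21 in LF_HF and 0.16 in LF_LF. Tsc22d3 had -0.021 (-0.14 to 0.093) on its brighter probe and 0.052 (p = 0.458) on its other one, and Sgk1, a kinase abundant in oligodendrocytes, had -0.020 (-0.23 to 0.18). Hif3a had the smallest p of the list (0.095, p = 0.0189). Of 18 immediate early genes, which mark recent neuronal firing, 15 had positive slopes (83.3%, against 58% of all probes), with a median of 0.023. None had an unadjusted p under 0.05, with Fos at 0.074 (-0.16 to 0.31) and Arc at 0.22 (-0.061 to 0.50). By group 11 of the 18 were positive in HF_HF, 13 in HF_LF, 8 in LF_HF and 10 in LF_LF.

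**Figure D3:**
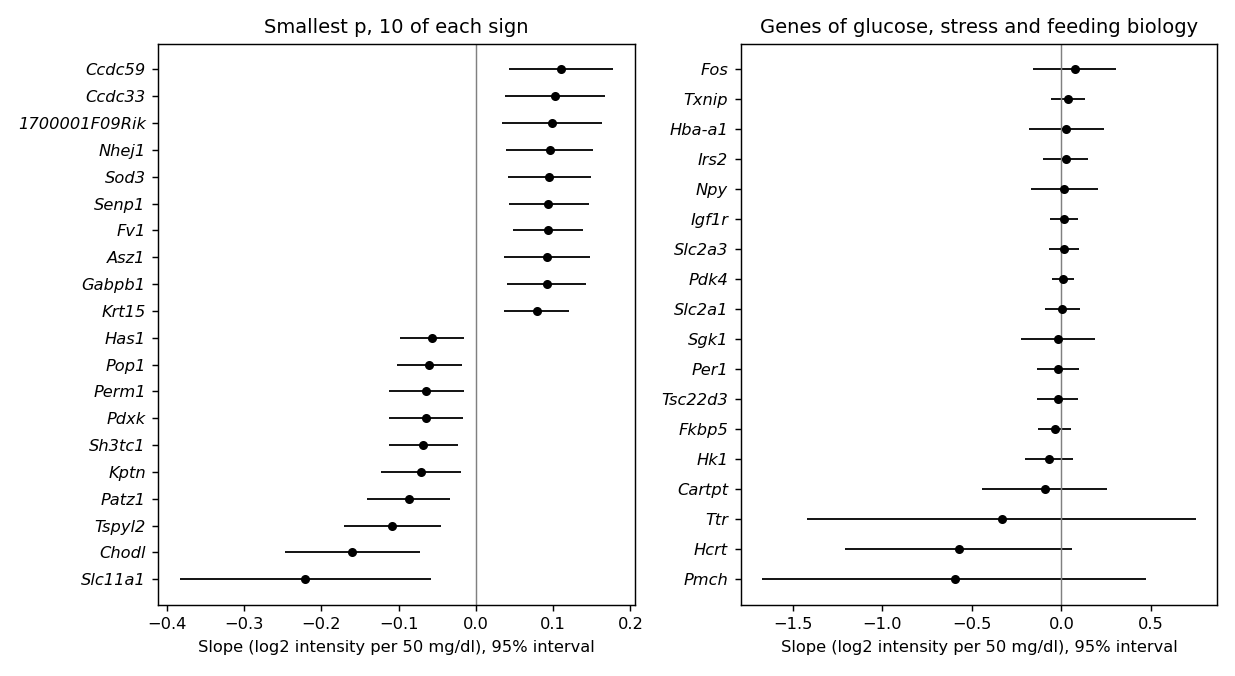
Slope of log2 intensity per 50 mg/dl of blood glucose with its 95% interval (horizontal axis) for the 20 genes with the smallest p, 10 of each sign (left), and for 18 genes of glucose, stress and feeding biology (right). The intervals on the right all include 0, and those of Ttr, Hcrt and Pmch are the widest.

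Feeding peptides of the hypothalamus had mostly negative slopes over all groups, with wide errors, but mostly positive ones in LF_HF. Of 17 measured members 12 had negative slopes, with a median of -0.061 (median of all probes 0.0078), and none had an unadjusted p under 0.05. By group 6 of the 17 were positive in HF_HF, 3 in HF_LF, 13 in LF_HF and 6 in LF_LF. Hcrt, which encodes the orexins that drive wakefulness and feeding, had levels of 6.02 to 9.68 in HF_HF (median 6.37), 6.26 to 9.95 in HF_LF (median 7.91), 6.24 to 9.46 in LF_HF (median 6.97) and 6.24 to 9.74 in LF_LF (median 7.28). It was above background in 24 of 40 arrays, and every group held animals at background and animals more than 2 log2 units above it. Its slope was -0.57 (SE 0.31, 95% interval -1.21 to 0.060, p = 0.0747, adjusted p = 0.995) and its r -0.28 (permutation p = 0.0856), with rho = -0.27 (permutation p = 0.113). By group the r was -0.062 in HF_HF, -0.49 in HF_LF, 0.12 in LF_HF and -0.79 in LF_LF. Pmch, for melanin-concentrating hormone of the same lateral hypothalamus, had -0.60 (SE 0.53, -1.67 to 0.47), and spanned 6.36 to 12.38 over the 40 animals, a 65-fold range. Trh had -0.31 (p = 0.0989), Npy 0.017 (-0.17 to 0.20) and Cartpt -0.094 (-0.44 to 0.25), with -0.047 on its other probe.

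Markers of some brain regions leaned to one sign, and those of others did not. The hypothalamic list shared Hcrt, Pmch and Trh with the feeding peptides, and the striatal list shared Tac1 with them. The counts of these lists are therefore not separate results. Cerebellar markers were positive in 3 of 7 (median -0.013) and cortical and hippocampal markers in 8 of 15 (median 0.025), against 58% of all probes. Of 9 hypothalamic markers, 6 of them peptides such as Hcrt, Pmch and Avp, 8 had negative slopes (median -0.24), as did all 10 measured striatal markers (median -0.10, with Pdyn at -0.22, p = 0.0654) and all 7 of the olfactory bulb (median -0.049). Thalamic markers were positive in 9 of 11 (median 0.086) and choroid plexus markers in 10 of 13 (median 0.084). The members of each list share the same 40 arrays, so such a count is not that of independent genes. The mean level of the hypothalamic list had a slope of -0.26 with an SE of 0.21, that of the striatal list -0.12 (SE 0.14), that of the thalamic list 0.075 (SE 0.20) and that of the choroid plexus list 0.033 (SE 0.18). The mean hypothalamic level ranged from 7.04 to 9.97 in HF_HF, 7.10 to 9.65 in HF_LF, 7.13 to 9.69 in LF_HF and 7.31 to 9.30 in LF_LF. Ttr, the transthyretin that the choroid plexus secretes, spanned 7.66 to 14.72 (a 133-fold range over animals) and had a slope of -0.33 (-1.42 to 0.75). The tissue was labelled as brain, and the part that the share of each region in a sample had in these slopes was not tested. By group, the median hypothalamic slope was -0.13 in HF_HF, -0.52 in HF_LF, 0.45 in LF_HF and -0.69 in LF_LF, and the median choroid plexus slope was -0.44, 0.76, 0.52 and 0.22 in the same order. The median striatal slope was -0.10, -0.31, 0.25 and -0.27 in that order, with all 10 markers positive in LF_HF. The median thalamic slope was -0.19, 0.545, 0.59 and -0.063. The median olfactory bulb slope was -0.0031, -0.10, 0.0080 and -0.12, with 4 of 7 markers positive in LF_HF. Over 36 other settings the hypothalamic median ran from -0.45 to -0.060, whereas the striatal one ran from -0.21 to 0.11 and the choroid plexus one from -0.054 to 0.42. The thalamic one ran from -0.041 to 0.28, and 5 of 11 thalamic markers were positive within cage and diet. The olfactory bulb median ran from -0.10 to 0.030.

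Most other lists lay closer to 0. For comparison, 58% of all probes had positive slopes. Oligodendrocyte and myelin markers were positive in 14 of 15 (median 0.031) but negative in 11 of 15 when animals were compared only within cage and diet (median -0.020). Cytosolic ribosomal proteins were positive in 29 of 37 (median 0.016), complex I of the respiratory chain in 23 of 31 (median 0.025) and the citrate cycle with pyruvate dehydrogenase in 14 of 25 (median 0.010). Neuronal markers were split 6 to 6 (median 0.00032), astrocyte markers 7 to 5 (median 0.017) and microglial markers 6 to 8 (median -0.0074). Blood cell transcripts were positive in 4 of 6 (median 0.033), with Hba-a1, for haemoglobin in residual blood, at 0.026 (-0.18 to 0.24). Over all 38 lists no member passed.

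**Figure D4:**
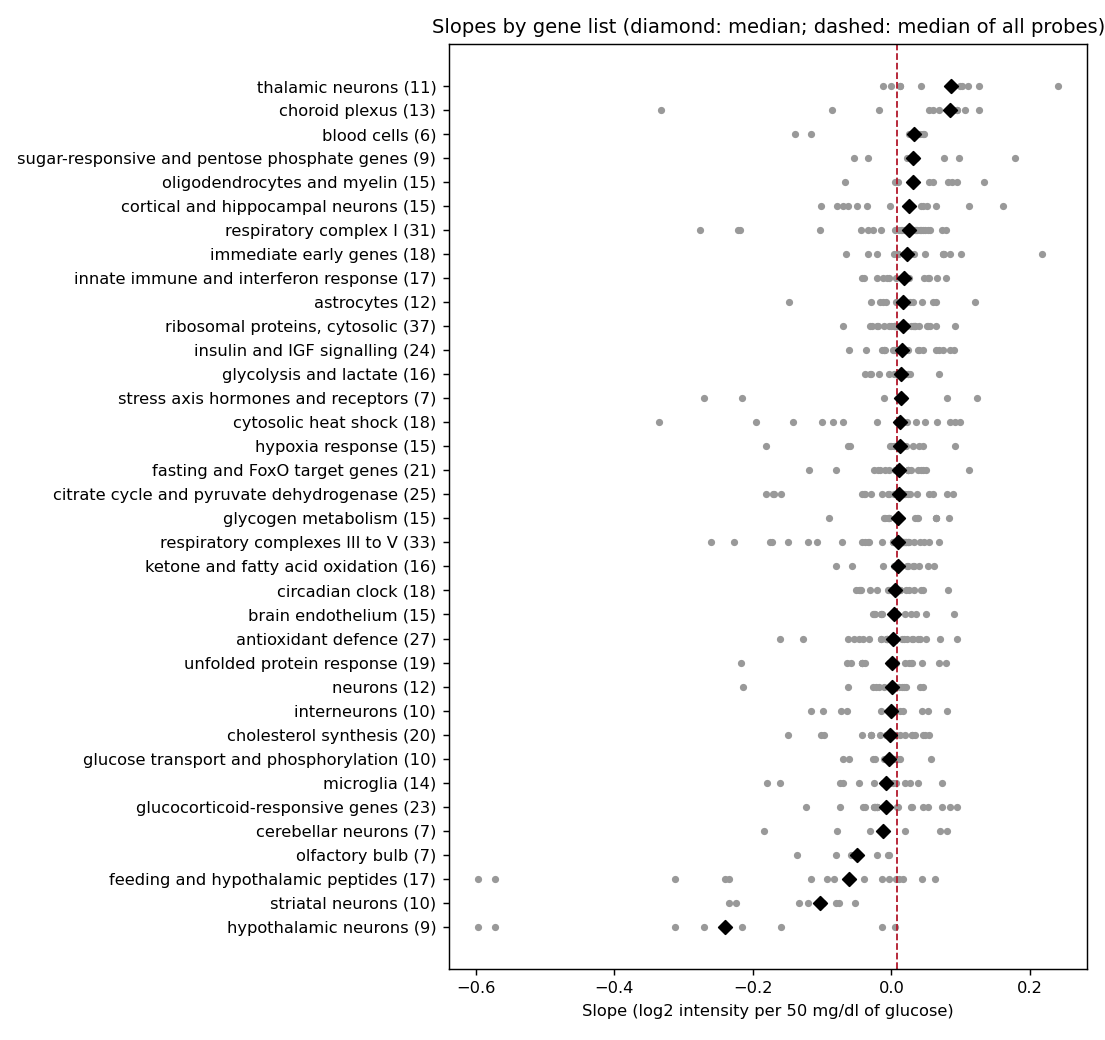
Slopes per 50 mg/dl of blood glucose (horizontal axis) of the measured members (grey points) of the gene lists with 5 or more measured members (rows, number measured in brackets), with the median of each list as a black diamond and that of all probes, 0.0078, as a dashed line. Most medians lie near the dashed line, and those of hypothalamic markers (-0.24) and striatal markers (-0.10) lie below it.

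The genes with the smallest p were mostly transcripts measured near background. Of the 20 named, 10 of each sign, 16 had a mean within 1 log2 unit of background, against 39.7% of all probes tested. These genes were chosen for their slopes, so the values that follow only describe them. Fv1, an endogenous retroviral gene that restricts murine leukaemia virus, had the smallest p (slope 0.093, SE 0.022, p = 0.000169, adjusted p = 0.995), which is 6.64% per 50 mg/dl. Its levels were 6.28 to 6.68 in HF_HF (median 6.46), 6.28 to 6.60 in HF_LF (median 6.41), 6.22 to 6.56 in LF_HF (median 6.52) and 6.39 to 6.73 in LF_LF (median 6.44). The r was 0.59 (permutation p = 0.00016) and rho 0.53 (permutation p = 0.00065), with 0.73 in HF_HF, 0.56 in HF_LF, 0.49 in LF_HF and 0.54 in LF_LF, and 0.56 without the 2 extreme animals. Fv1 was above background in 23 of 40 arrays. Sod3, the extracellular superoxide dismutase, had 0.095 (SE 0.027, p = 0.00103, adjusted p = 0.995), with levels of 6.64 to 7.0 in HF_HF (median 6.81), 6.54 to 6.97 in HF_LF (median 6.73), 6.62 to 6.94 in LF_HF (median 6.76) and 6.59 to 7.0 in LF_LF (median 6.77). Other positive slopes were those of Senp1, which removes SUMO from proteins (0.094), Gabpb1, a subunit of the factor that activates genes of mitochondrial proteins (0.092, and 0.046 on its other probe), Nhej1, of DNA end joining (0.095), and the keratin Krt15 (0.079).

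Negative slopes were led by Chodl, a membrane lectin (-0.16, SE 0.043, p = 0.000651, adjusted p = 0.995). Its levels were 6.25 to 6.93 in HF_HF (median 6.50), 6.29 to 7.05 in HF_LF (median 6.61), 6.38 to 6.85 in LF_HF (median 6.58) and 6.32 to 6.96 in LF_LF (median 6.72), with an r of -0.75 in HF_HF, -0.55 in HF_LF, -0.082 in LF_HF and -0.54 in LF_LF. Tspyl2, a nucleosome assembly protein relative, had -0.11 (p = 0.00133), and Patz1, a zinc finger repressor, -0.087 (p = 0.00228). The brightest of the 20 was Slc11a1, the metal transporter of phagocyte vesicles, with levels of 9.47 to 10.54 in HF_HF (median 10.12), 9.53 to 10.64 in HF_LF (median 10.23), 9.54 to 10.42 in LF_HF (median 10.19) and 9.5 to 10.67 in LF_LF (median 10.30). Its slope was -0.22 (SE 0.080, p = 0.00899, adjusted p = 0.995), but its other probes, at mean levels of 6.46 and 6.94, had 0.0095 (p = 0.719) and 0.0090 (p = 0.737), so the probes of this gene disagreed.

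**Figure D5:**
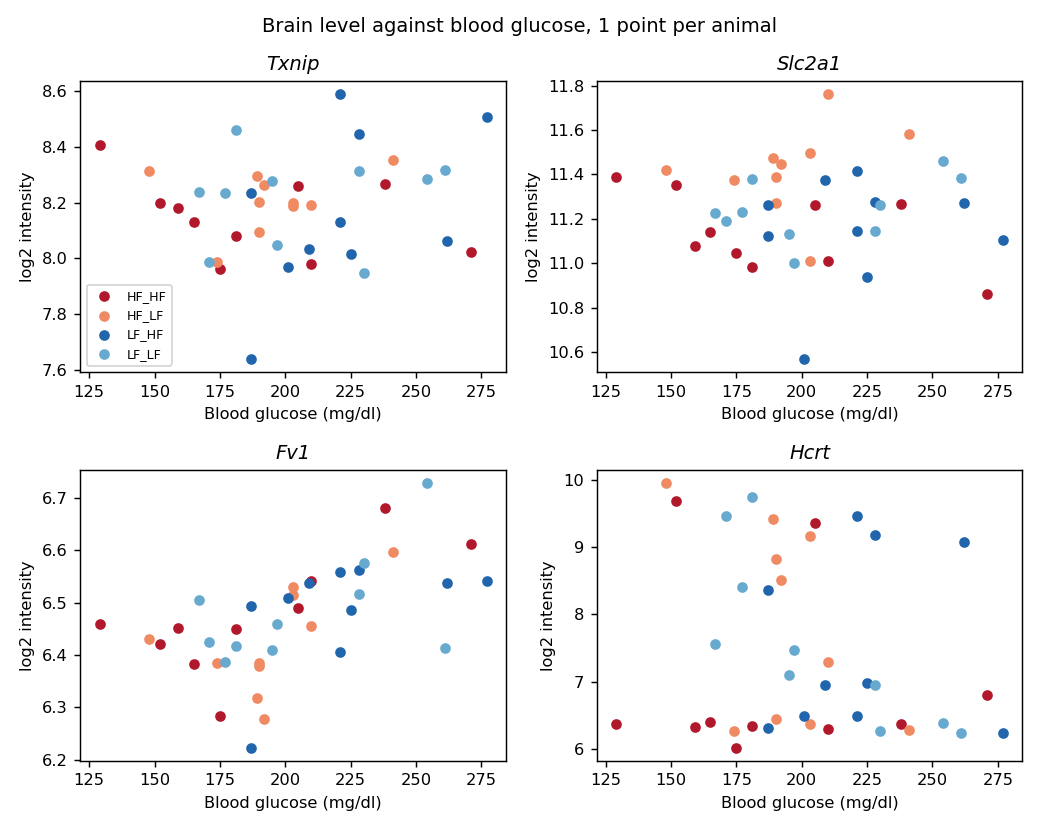
Brain level (log2 intensity, vertical axes) of Txnip, Slc2a1, Fv1 and Hcrt against blood glucose in mg/dl (horizontal axes), with 1 point per animal coloured by group (n = 10 each). Fv1 spans only 6.22 to 6.73, whereas Hcrt runs from background to 9.95.

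Whether the relation with glucose differed by diet was asked with 1 slope per group. Neither difference gave a called probe. Between HF-fed and LF-fed offspring 0 of 14350 differed (0%, smallest adjusted p = 0.871), with 488 at an unadjusted p under 0.05 (3.4%) by limma and 201 positive and 84 negative by the regularised statistic. The 5 genes with the smallest p were Dnajc28 (difference of slopes 0.21, SE 0.056, p = 0.000579), Cald1 (0.20), Tcn2, which carries vitamin B12 (-0.25), Iqcb1, a protein of cilia (0.28) and Zfat (0.15). Dnajc28 had a slope of 0.089 in HF_HF, -0.069 in HF_LF, 0.15 in LF_HF and -0.11 in LF_LF. Its group means were 6.54 to 6.62 and those of Zfat 6.51 to 6.58, close to the background of 6.35 to 6.51.

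Between sons of HF-fed and LF-fed dams 0 of 14350 slopes differed as well (0%, smallest adjusted p = 0.803), with 270 at an unadjusted p under 0.05 (1.88%) by limma and 60 positive and 97 negative by the regularised statistic. Cald1, the actin-binding caldesmon of smooth muscle and vessels, had the smallest p (-0.25, SE 0.055, p = 5.59e-05, adjusted p = 0.803). Its levels were 6.33 to 6.62 in HF_HF (median 6.48), 6.03 to 6.65 in HF_LF (median 6.52), 6.25 to 6.64 in LF_HF (median 6.46) and 6.27 to 6.53 in LF_LF (median 6.43). The slope of Cald1 was -0.28 in HF_LF and 0.16 in LF_HF, but near 0 in HF_HF (-0.052) and LF_LF (0.0038), and the transcript was above background in 24 of 40 arrays. Without cage 12, which held the HF_LF animal of 241 mg/dl with the lowest level, the maternal difference was -0.18. Lama2, a laminin chain of basement membranes (-0.21), Igf2 (-0.50), Pdpn, a marker of leptomeninges and choroid plexus (-0.23), and Medag (0.41) followed. Igf2, which in the adult brain comes mainly from leptomeninges and choroid plexus, had levels of 10.86 to 11.81 in HF_HF (median 11.51), 10.94 to 12.05 in HF_LF (median 11.59), 10.98 to 12.06 in LF_HF (median 11.59) and 10.99 to 12.04 in LF_LF (median 11.68), with slopes of -0.26, 0.016, 0.52 and 0.25 in that order.

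Taken one group at a time, limma again called no probe in any group (0% in HF_HF, HF_LF, LF_HF and LF_LF), with smallest adjusted p-values of 0.578 in HF_HF and 0.999 or higher in the other groups. An unadjusted p under 0.05 was found for 1224 probes in HF_HF (8.53%, 931 of them positive), 240 in HF_LF (1.67%), 402 in LF_HF (2.8%) and 303 in LF_LF (2.11%). HF_HF had the widest glucose range and the smallest median SE of a slope, 0.065, against 0.12 in HF_LF, 0.096 in LF_HF and 0.081 in LF_LF. By the brightest probe of each gene, the smallest p in HF_HF were those of the histone gene H2ac24 (0.30, SE 0.080), Zfp27 (0.17) and Sez6l2, a neuronal membrane protein (-0.29), each with an adjusted p of 0.578 and with slopes between -0.15 and 0.19 in the other groups. The other probe of Zfp27 had 0.10 in HF_HF, but that of Sez6l2 had -0.027 (p = 0.531), so the probes of Sez6l2 disagreed. That a group had more small p-values is not by itself a difference between groups. The contrasts above compared slopes averaged over pairs of groups, and HF_HF was not tested against the other groups. In LF_HF the smallest p was that of Kif5a, a motor of axonal transport (-0.24, SE 0.054, p = 9.65e-05, adjusted p = 1, with -0.16 and -0.18 on its other probes), in HF_LF that of Pdxk, which activates vitamin B6 (-0.24, p = 0.000266, adjusted p = 0.999), and in LF_LF that of Lama2 (0.21, p = 0.000439, adjusted p = 1). Pdxk lay close to background, with group means of 6.49 to 6.54.

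The main axes of variation between brains were also compared with glucose, a step added after the data were seen. Of the first 6 principal components the largest within-group correlation was with the fourth, which held 3.5% of the variance (absolute r = 0.36, permutation p = 0.0287, adjusted p = 0.172, and absolute rho = 0.40, permutation p = 0.0149, adjusted p = 0.0895). The first component, with 54.8% of the variance, had an absolute r of 0.12 (permutation p = 0.47, adjusted p = 0.705) and an absolute rho of 0.071 (permutation p = 0.679, adjusted p = 0.776). Compared only within cage and diet, 0 probes passed and 134 positive and 120 negative slopes had an unadjusted p under 0.05, with Fv1 at 0.090, Txnip at 0.048 and Slc2a1 at 0.077.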

How the data were processed

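The authors ran 1 Illumina MouseRef-8 v2.0 array per brain, exported fluorescence intensity with BeadStudio, without background subtraction, and quantile-normalised the 40 arrays. The deposited intensity values, of 25697 probes, were taken to log2 here. Glucose, body measures and diets came from the sample labels. Background was the 95th percentile, per array, of 1362 probes of chemosensory receptor genes, which brain should hardly express, and 14350 probes above it in at least 20 arrays were tested, 13506 of them with a gene symbol in the platform annotation. A gene stands for its brightest probe.

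limma 3.58.1 in R 4.3.3 fitted log2 intensity on glucose (per 50 mg/dl) with the 4 groups as covariate, or with 1 slope per group for the differences of slopes, with Benjamini-Hochberg adjustment over all probes. r and rho used values or ranks centred on the group, with 100000 permutations of glucose within groups (smallest possible p 1e-05); 159 genes were examined, and the adjusted p beside an r is limma's over all probes. Named genes were the 10 of each sign with the smallest p, 19 chosen genes, the 3 smallest p of each list, 5 for each difference of slopes and 3 per group. Members and lists were chosen with earlier results of these data known. The fits were tested on simulated data. The label for the second body weight does not settle the age, and body mass index was not used. The number of arrays limits the precision.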

Additional observations from a re-analysis of the deposited data

Results flagged for a closer look

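Glucose and 18 genes were examined for a single animal standing apart from the other 9 of its group, in 76 groups of values, of which chance would give about 1 in 20, or 3.8; 4 were found. Irs1 was at 6.13 in 1 LF_HF animal of cage 14 (glucose 187 mg/dl), whereas the nearest of its group had 6.50, and Fv1 was at 6.22 in that same animal, whereas the nearest had 6.41. Without cage 14 the slope of Irs1 was 0.067 and that of Fv1 0.084. Ttr was at 9.21 in 1 LF_LF animal of cage 11 (glucose 254 mg/dl), whereas the nearest had 11.91. Cald1 was at 6.03 in 1 HF_LF animal of cage 12, the one with the highest glucose of its group (241 mg/dl), whereas the nearest had 6.35. Without that cage the slope of Cald1 over all groups was 0.0030, the difference of its slopes between maternal diets -0.18 and that between post-weaning diets 0.12.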

How the results depend on the processing

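No probe was called for the glucose slope under any of 36 other settings, of which the 2 with a principal component as covariate were chosen after seeing the data, and the smallest adjusted p of any setting was 0.588, without HF_LF. The number of probes at an unadjusted p under 0.05, 358 as reported, was 1105 of all 25697 probes with no filter, 184 for probes above background in all 40 arrays, 216 without the 2 animals of most extreme glucose, 254 within cage and diet, 694 with the first and 139 with the fourth component, 598 without the group covariate, 624 without cage 4 and 249 without cage 14. The differences of slopes also gave no called probe under any other setting. For post-weaning diet, the number at an unadjusted p under 0.05 was 1922 without cage 11, 259 without cage 4, 272 without cage 23 and 1035 with no filter, against 488 as reported. For maternal diet it was 602 without cage 11, 428 without cage 10, 155 without cage 14 and 737 with no filter, against 270 as reported. Leaving out cages for these differences was also chosen after seeing the data.

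Of 159 genes 54 had a slope of the other sign in at least 1 setting, among them Slc2a1, Txnip and Fkbp5. None of the 20 with the smallest p did. Those 20 were chosen for slopes large against their SE in these same arrays, so their kept sign is no support for them. Of 5683 slopes under the other settings 5483 lay within 1 SE of the reported one. The medians of 30 of 38 lists changed sign in at least 1 setting. The correlation of glucose with weight at 3 weeks was -0.093 without the 2 extreme animals and -0.107 within cage and diet, and that with length was -0.0459 without the 2 animals. Of the 159 correlations 1 changed sign without those animals. No paired analysis was possible by replicate number because the numbers were given in accession order and only name samples, but 5 breeding cages held sons on both post-weaning diets. With the breeding cage as a random block 0 probes were called, and 337 had an unadjusted p under 0.05 for the glucose slope, 497 for the difference between post-weaning diets and 291 for that between maternal diets. A lone probe of median SE would have needed 1.17-fold per 50 mg/dl to be called over all probes, and dim probes understate the fold of their transcripts.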
